A study of Mus musculus with 6 samples.

Results

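The genes described here encode the secreted and membrane-bound metalloproteinases of the extracellular matrix and their natural inhibitors: the matrix metalloproteinases (Mmp genes), the ADAMTS proteases (Adamts genes) and the tissue inhibitors of metalloproteinases (Timp genes). The rule for members reads gene symbols and no measured value, and takes every gene whose symbol was Mmp, Adamts or Timp followed by its number, with Mmp9 and Mmp20 left out. The rule took 40 of the 23594 genes of the deposited table, made up of 17 Mmp, 19 Adamts and 4 Timp genes. Mmp1a, Mmp1b, Mmp7 and Mmp10 have symbols of this form but had no entry in the deposited table.

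RNA was measured in apical tissue that had been cut by laser from the furcation development region (FDR) of mandibular first molars, where a molar's roots part from each other. The labels give all mice as C57BL/6 and 4.5 days old (PN4.5). The 3 Control libraries came from wild type littermates and the 3 Lhx6-/- libraries from mice that carried the Lhx6-CreER knock-in on both alleles, which leaves no functional Lhx6, a LIM homeodomain transcription factor, in any tissue and not in the molar alone. No other allele and no treatment of these mice is named in the labels, and several molars were pooled for each library. The study collected both sexes, but the labels do not give the sexes in each pool. Sex-linked transcripts differed between the libraries, as given below. Lhx6 itself had 27.8, 18.2 and 21.9 counts per 1000000 (CPM) in the Control libraries and 12.8, 9.82 and 10.5 CPM in the Lhx6-/- libraries (log2 fold change -1.04, adjusted p = 0.0210 by the quasi-likelihood test of edgeR and Benjamini-Hochberg adjustment). The libraries held between 60132323 and 76157433 estimated counts, and all 8 genes of a dental mesenchyme marker list were detected in every library. The measured markers of all other cell type lists were detected in every library too, so detection does not tell which cells made up the tissue. Over the libraries, 6 ameloblast markers summed to 114671 to 145944 CPM and the 8 mesenchyme markers to 400.7 to 480.1 CPM.

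Matrix metalloproteinases are zinc-dependent enzymes that cut collagens, proteoglycans and other matrix proteins, and most are made as inactive precursors. ADAMTS proteases carry thrombospondin repeats that hold them to the matrix, and they cut procollagens, versican, aggrecan and more specialised substrates such as von Willebrand factor. TIMP proteins bind the active site of these enzymes and block it. In the developing jaw, such enzymes are known for clearing the matrix around growing teeth, for shaping bone, and for processing the collagen of dentin and of the periodontal ligament.

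Promoter sequences are shown first for 4 members, since levels and changes of these genes are described below: Adamts20, the member that met the fold and p rule, Timp3, the member with the next smallest p, and Mmp13 and Mmp3, genes of 1 cluster whose levels lay far apart. The sequences are those of RefSeq for GRCm38.p6 and run from 250 bases before to 50 bases after the start site, 5' to 3' on the strand of the gene. Capitals mark matches on either strand to a TATA box (TATAAA), an AP-1 site (TGANTCA), a GC box (GGGCGG) or a homeodomain core (TAATTA), none of which overlapped in these 4 windows.
Adamts20, chr15:94404301-94404600, minus strand: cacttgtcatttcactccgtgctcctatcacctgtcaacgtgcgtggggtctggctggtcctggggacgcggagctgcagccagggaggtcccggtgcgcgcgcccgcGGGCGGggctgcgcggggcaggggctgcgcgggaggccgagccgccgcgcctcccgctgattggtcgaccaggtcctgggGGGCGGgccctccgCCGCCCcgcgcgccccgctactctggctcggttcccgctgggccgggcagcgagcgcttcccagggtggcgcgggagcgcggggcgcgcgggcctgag
Timp3, chr10:86300162-86300461, plus strand: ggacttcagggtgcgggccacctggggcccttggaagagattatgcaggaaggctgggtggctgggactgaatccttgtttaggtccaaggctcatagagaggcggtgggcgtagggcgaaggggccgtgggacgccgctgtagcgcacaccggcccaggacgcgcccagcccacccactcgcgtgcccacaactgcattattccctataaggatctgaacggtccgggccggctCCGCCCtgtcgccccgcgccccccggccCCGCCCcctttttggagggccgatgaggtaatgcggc
Mmp13, chr9:7272264-7272563, plus strand: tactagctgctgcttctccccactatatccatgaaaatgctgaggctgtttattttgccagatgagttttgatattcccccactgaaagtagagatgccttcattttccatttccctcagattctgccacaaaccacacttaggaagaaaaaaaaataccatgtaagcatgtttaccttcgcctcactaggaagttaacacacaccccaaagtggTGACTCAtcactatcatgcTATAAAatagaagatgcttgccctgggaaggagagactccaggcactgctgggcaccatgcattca
Mmp3, chr9:7445572-7445871, plus strand: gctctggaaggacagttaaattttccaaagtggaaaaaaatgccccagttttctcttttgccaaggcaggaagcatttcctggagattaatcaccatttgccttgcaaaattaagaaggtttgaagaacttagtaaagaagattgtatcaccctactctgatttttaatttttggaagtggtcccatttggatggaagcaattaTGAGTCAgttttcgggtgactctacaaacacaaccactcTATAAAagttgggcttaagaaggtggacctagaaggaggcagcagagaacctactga
A RefSeq promoter was found for 27 of the 40 members, which had 29 promoters together. The Adamts20 and Timp3 sequences held 3 and 2 GC boxes and matched none of the other motifs, and their GC content was 77.3% and 67.0%, against a median of 52.7% over all 32851 promoters of the table. The RefSeq start of Adamts20 lay 61068 bases inside the gene as the deposited table placed it, so that this promoter belongs to 1 of the possible starts of the gene. The Mmp13 and Mmp3 sequences each held an AP-1 site followed by a TATA box, and their GC content was 43.7% and 40.0%. Both motifs, whatever their order, were held by 1.5% of all promoters. Among the 29 member promoters, 18 held a GC box, which 35.7% of all promoters held, 6 held a TATA box (13.6% of all), 3 an AP-1 site (7.8% of all) and 2 a homeodomain core (5.3% of all). The AP-1 sites were in the promoters of Mmp12, Mmp13 and Mmp3, and the homeodomain cores in those of Adamts17 and Mmp27. A match is a run of letters in this window and was not tested as a binding site.

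The question of the design was which transcripts of the FDR differ when Lhx6 is lost. Among the members, Adamts20 was higher in Lhx6-/- tissue by 1.82-fold, and no other member met the rule that asks for a 1.5-fold change or more and an unadjusted p under 0.05. That is 1 of the 35 members with enough counts to be tested, where 3.28% of all 20114 tested genes met the rule. At an adjusted p under 0.05 the member count was again 1, against 0.403% of all genes. An unadjusted p under 0.05 was reached by 6 members, Adamts20, Timp3, Mmp2, Adamts3, Mmp28 and Adamts4 (17.1% of those tested, against 9.81% of all genes), and all 6 were higher in Lhx6-/- tissue (4.75% of all genes were higher at that p). In bulk tissue, more cells of a type and more RNA per cell cannot be told apart, and this holds for each value below.

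The changes of most members were small. The fitted log2 fold change was above 0 for 30 of the 35 tested members (85.7%), where 49.7% of all tested genes were above 0, and its median was 0.12 over the members and -0.002 over all genes. It ran from -0.56 for Timp4 to 1.05 for Adamts13, both genes of few counts. In 23 members the fitted change was within 20% in either direction. For 24 members (68.6%) the whole 95% interval of the change lay within 1.5-fold, against 54.2% of all genes. For 6 members the values of the 2 genotypes did not overlap (17.1%, against 15.5% of all genes). They were Adamts20, Timp3, Mmp2, Adamts3, Mmp25 and Timp2, and all 6 were higher in Lhx6-/- tissue (7.86% of all genes did not overlap in that direction). With the level of dental epithelial markers as a covariate the median over the members was -0.01, and with that of Y-linked genes it was 0.25. The epithelial and Y-linked levels themselves differed on average between the genotypes, as given below, so neither fit can fully separate its covariate from genotype.

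**Figure D1:**
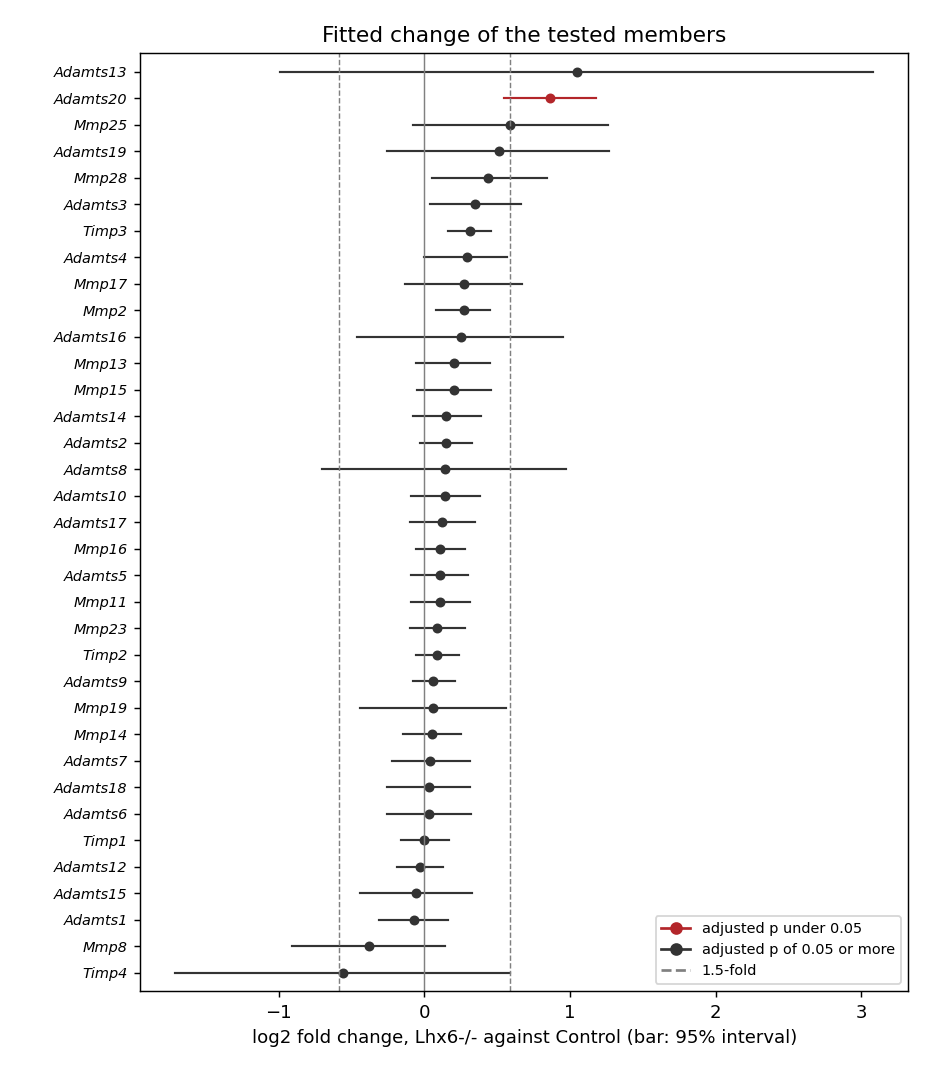
Fitted log2 fold change of the 35 tested members, Lhx6-/- against Control, in order of size (points), with 95% intervals (bars) and dashed lines at 1.5-fold in either direction. Adamts20, in red, is the member with an adjusted p under 0.05, and the interval of Adamts13 reaches from -0.99 to 3.08.

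Levels differed far more between genes than between genotypes. On the scale of CPM per kilobase of exon, which allows genes of different length to be compared, the mean level over the 6 libraries ran from 208.5 for Mmp13 to 0.0103 for Mmp12. Mmp13, Mmp2, Timp2, Mmp14 and Timp1 held 80.3% of the summed level of all 40 members. Mmp13 lay above Mmp2 (137.2) and Mmp2 above Timp2 (109.7) in every library, whereas Timp2, Mmp14 (106.1) and Timp1 (101.6) were not separated in that order by their ranges over libraries. Adamts2 came next at 26.5, with a gap to Timp1 that no library crossed, and was followed by Timp3 at 20.5, Adamts10 at 19.1 and Mmp23 at 18.2, each overlapping its neighbour. Adamts20 ranked 26th of the 40 members at a mean of 0.876, beside Adamts18 at 0.873. On the CPM scale, 8 members had a mean of at least 100 and 7 a mean under 1.

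**Figure D2:**
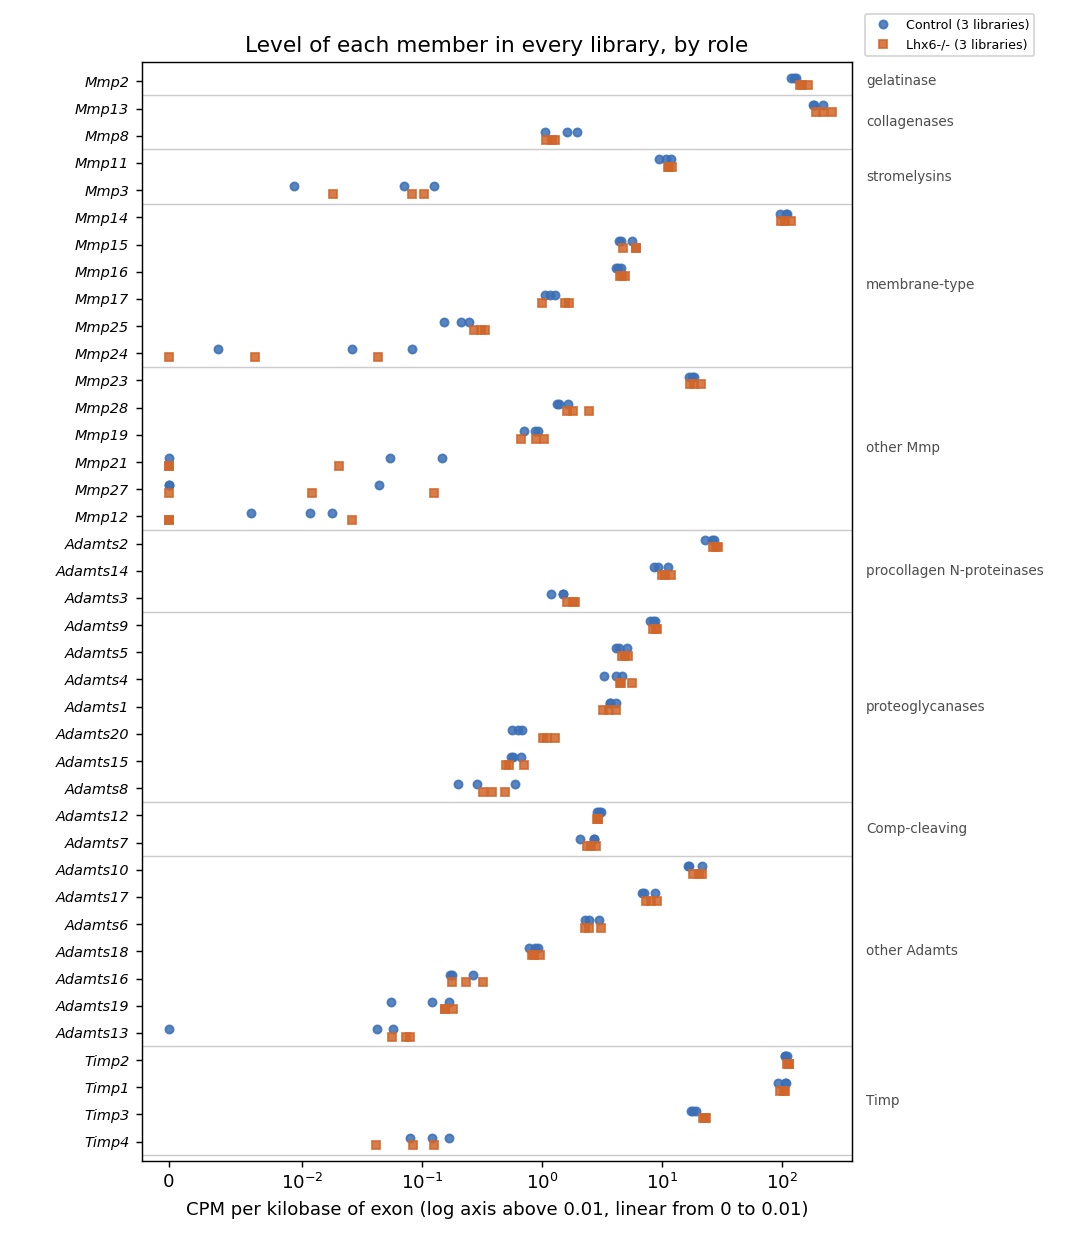
Level of each of the 40 members in every library, in CPM per kilobase of exon on a log axis that is linear below 0.01 (circles, 3 Control libraries; squares, 3 Lhx6-/- libraries), grouped by role. In rows of higher level the symbols of both genotypes lie close together, while rows near 0 spread widely, as for Mmp3 from 0.00939 to 0.125. Rows differ from near 0 up to a mean of 208.5 for Mmp13.

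Summed over each family on the same scale, the Mmp genes stood at 466.1 ± 30.5 in Control and 526.8 ± 47.0 in Lhx6-/- tissue (SD, n = 3 libraries each), with a Lhx6-/- replicate 3 (472.6) inside the Control range of 434.1 to 495.0. The Adamts genes stood at 93.4 ± 8.96 and 102.3 ± 4.92, and the Timp genes at 226.2 ± 9.04 and 237.7 ± 4.58, with overlapping ranges in both. The Mmp sum divided by the Timp sum was 2.06, 2.0 and 2.11 in Control replicates 1 to 3 and 2.28, 2.38 and 1.99 in Lhx6-/- replicates 1 to 3. The ranges of the ratio overlapped, because Lhx6-/- replicate 3 had the lowest ratio of all 6 libraries. These sums hold the members only, and with Mmp9 and Mmp20 added, after seeing the data, the Mmp sum was 932.8 ± 26.8 in Control and 961.9 ± 71.0 in Lhx6-/- tissue. The ratio to the Timp sum was then 4.13 ± 0.156 and 4.05 ± 0.285 (SD, n = 3 each), with the difference in the opposite direction and again overlapping ranges.

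Adamts20 encodes a secreted protease that cuts versican and is known from belted mice, whose pigment cells fail to spread along the trunk. The gene lies at chr15:94270163-94465418 (mm10, minus strand), and no other annotated gene overlaps it. Its level was 5.64, 5.01 and 6.14 CPM in Control and 9.89, 11.4 and 9.20 CPM in Lhx6-/- replicates 1 to 3, from between 335 and 851 estimated counts per library. Every Lhx6-/- library was above every Control library, and the nearest pair was 6.14 and 9.20 CPM. Control tissue averaged 5.6 ± 0.564 CPM and Lhx6-/- tissue 10.2 ± 1.14 CPM (SD, n = 3 each), which gave a log2 fold change of 0.86 with a standard error of 0.15, a 95% interval of 0.55 to 1.18 and an adjusted p of 0.0274 from edgeR. The log2 fold change was between 0.75 and 1.03 in all 18 alternative fits, and the adjusted p was over 0.05 in 7 of them, with a range of 4.94e-05 to 0.448. Leaving out a single library ended the call in 5 of 6 cases: the adjusted p from edgeR was 0.0523, 0.0617 and 0.10 without Control replicates 1, 2 and 3, and 0.107, 0.193 and 0.0492 without Lhx6-/- replicates 1, 2 and 3. With dental epithelial markers as a covariate it was 0.448 at a log2 fold change of 0.75, and with Y-linked genes 0.0503 at 1.03.

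The other proteoglycan-cutting members stayed closer to the Control level. Adamts9, which acts on versican and aggrecan, had the highest level per kilobase of the group, with 132.1, 126.0 and 119.3 CPM in Control and 135.3, 132.8 and 126.7 CPM in Lhx6-/- replicates 1 to 3. The groups overlapped, and the log2 fold change of 0.06 had a 95% interval of -0.08 to 0.21. Adamts4, an aggrecanase, stood at 19.8, 15.9 and 22.1 CPM in Control and 26.9, 21.5 and 22.0 CPM in Lhx6-/- replicates 1 to 3. Control replicate 3 lay above 2 of the 3 Lhx6-/- libraries, and the log2 fold change was 0.29 (standard error, SE, 0.13, unadjusted p = 0.0474, adjusted p = 0.501 from edgeR). Adamts1, Adamts5, Adamts8 and Adamts15 had log2 fold changes between -0.07 and 0.14, with overlapping groups.

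The procollagen N-proteinases remove the amino-terminal propeptide from fibrillar procollagens, a step in building the collagen fibrils of dentin and ligament. Adamts2, the member of this group with the highest level, stood at 249.8, 210.9 and 241.3 CPM in Control and 271.6, 260.3 and 248.2 CPM in Lhx6-/- replicates 1 to 3. Control replicate 1 lay above Lhx6-/- replicate 3, and the log2 fold change was 0.15 (95% interval -0.03 to 0.33). Adamts3, on chr5:89677087-89883334 (minus strand), stood at 8.03, 8.10 and 6.43 CPM in Control and 8.69, 10.2 and 9.89 CPM in Lhx6-/- replicates 1 to 3. All Lhx6-/- libraries lay above all Control libraries, by 8.69 against 8.10 CPM for the nearest pair. The log2 fold change was 0.35 (SE 0.14, unadjusted p = 0.0285, adjusted p = 0.437 from edgeR), which did not pass the adjusted test. Adamts14, at 50.4 ± 7.43 CPM in Control and 56.0 ± 5.41 CPM in Lhx6-/- tissue (SD, n = 3), had overlapping groups. Its log2 fold change was 0.15 (95% interval -0.08 to 0.39).

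Adamts7 and Adamts12, which cut cartilage oligomeric matrix protein (encoded by Comp), had log2 fold changes of 0.04 and -0.03. Adamts12, with the higher level per kilobase of the pair, stood at 33.9, 31.2 and 32.4 CPM in Control and 31.3, 32.3 and 31.8 CPM in Lhx6-/- replicates 1 to 3. These values lay among each other, and the 95% interval of -0.19 to 0.13 held the change within 1.5-fold.

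The remaining 7 Adamts genes had log2 fold changes between 0.03 and 1.05. Adamts10, which associates with fibrillin microfibrils, had the highest level per kilobase of these, at 176.6, 137.5 and 134.9 CPM in Control and 176.7, 168.4 and 149.8 CPM in Lhx6-/- replicates 1 to 3. Control replicate 1 lay above 2 of the 3 Lhx6-/- libraries, and the log2 fold change was 0.14 (95% interval -0.09 to 0.38). Adamts13, which cuts von Willebrand factor and was singled out after its values were seen, had the largest fitted log2 fold change of the tested members, but from 13, 19 and 0 estimated counts in Control and 17, 29 and 27 in Lhx6-/- replicates 1 to 3. Its 95% interval of -0.99 to 3.08 included no change.

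Among the matrix metalloproteinases, Mmp2 encodes gelatinase A, which cuts denatured collagen and the collagen of basement membranes. It lies at chr8:92827291-92853420 (plus strand) and stood at 437.9, 395.8 and 426.7 CPM in Control and 553.0, 491.2 and 470.6 CPM in Lhx6-/- replicates 1 to 3. The groups did not overlap, with 437.9 against 470.6 CPM for the nearest pair. The mean was 420.2 ± 21.8 CPM in Control and 504.9 ± 42.9 CPM in Lhx6-/- tissue (SD, n = 3 each), with a log2 fold change of 0.27 (SE 0.08, unadjusted p = 0.00801, adjusted p = 0.284 from edgeR). In the 18 alternative fits the adjusted p ran from 0.0612 to 0.888 and the log2 fold change from 0.10, with epithelial markers as a covariate, to 0.42, with Y-linked genes as a covariate.

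Mmp13, a collagenase that bone and cartilage cells are known to make, had the highest level of all members per kilobase. It stood at 491.6, 481.9 and 585.5 CPM in Control and 587.1, 690.8 and 507.6 CPM in Lhx6-/- replicates 1 to 3. Lhx6-/- replicate 3 lay below Control replicate 3, and the log2 fold change of 0.20 (standard error 0.12, unadjusted p = 0.119) was not past the test. Mmp8, the collagenase of neutrophil granules, stood at 3.92, 4.74 and 2.55 CPM in Control and 3.09, 2.59 and 2.92 CPM in Lhx6-/- replicates 1 to 3, a log2 fold change of -0.38 (95% interval -0.91 to 0.14) with overlapping groups. The summed level of 7 neutrophil markers was lower in every Lhx6-/- library, at 132.6 to 248.0 CPM against 252.2 to 334.6 CPM in Control. Of the 7, S100a8 and S100a9 did not overlap between the genotypes, and the other 5, which encode granule proteins, summed to 79.9 to 164.1 CPM in Lhx6-/- and 134.5 to 201.0 CPM in Control libraries, with overlap. The part of neutrophils in the Mmp8 values was not tested.

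Mmp13, Mmp12, Mmp3, Mmp8 and Mmp27 lie in that order on chromosome 9, between 7272514 and 7581885, all on the plus strand. Mmp13 stood at 180.3 to 258.4 CPM per kilobase over the 6 libraries and Mmp8 at 1.05 to 1.96. Mmp3, a stromelysin with a broad range of substrates, reached 0.125 CPM per kilobase at most, from 1 to 15 estimated counts per library. Mmp12, the macrophage elastase, and Mmp27 were listed at 0 in 2 and 3 of the 6 libraries. Although the windows printed above for Mmp13 and Mmp3 held the same pair of motifs, their mean levels were 208.5 and 0.0681 CPM per kilobase. Mmp3, Mmp12 and Mmp27 were too low to be tested, as were Mmp21 and Mmp24, none of which exceeded 23 counts in a library, and in the fit without a filter on low counts their unadjusted p ran from 0.115 to 0.999.

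**Figure D3:**
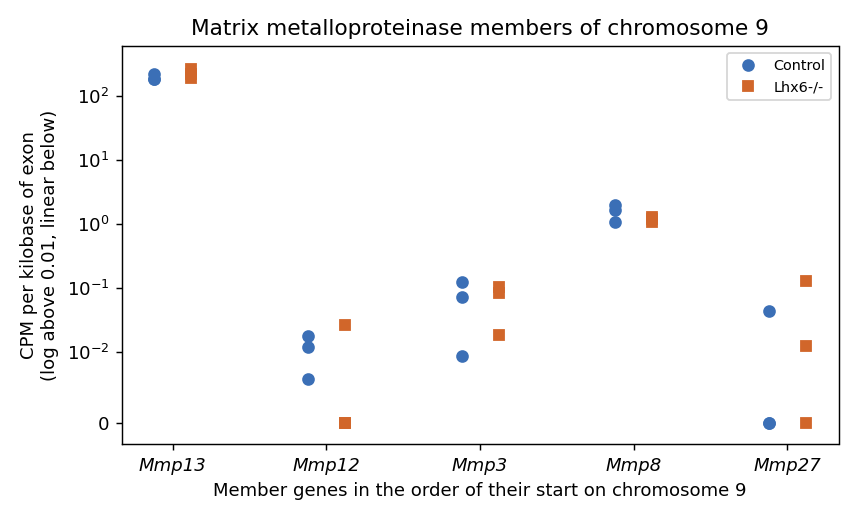
Level of the 5 Mmp members on chromosome 9 in every library, in CPM per kilobase of exon on a log axis that is linear below 0.01, in the order of their start (circles, Control; squares, Lhx6-/-). Mmp13 lies at 180.3 or more in every library, Mmp8 between 1.05 and 1.96, and the other 3 genes at 0.126 or less.

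Mmp11, a stromelysin of fibroblasts, stood at 32.8, 26.2 and 30.1 CPM in Control and 31.8, 33.5 and 30.8 CPM in Lhx6-/- replicates 1 to 3, and Control replicate 1 lay within the Lhx6-/- range (log2 fold change 0.11, 95% interval -0.09 to 0.31).

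The 6 membrane-type genes encode proteases anchored to the cell surface. Mmp14, which activates the Mmp2 precursor, had the highest level of these, at 657.3, 566.6 and 640.0 CPM in Control and 711.9, 629.6 and 588.4 CPM in Lhx6-/- replicates 1 to 3. The groups overlapped, and the log2 fold change of 0.05 had a 95% interval of -0.15 to 0.25. Its sign turned in 3 of the 18 alternative fits. Mmp25, a membrane-type protease known from leukocytes, stood at 1.30, 0.808 and 1.12 CPM in Control and 1.78, 1.65 and 1.42 CPM in Lhx6-/- replicates 1 to 3. All Lhx6-/- libraries were higher, from between 54 and 123 estimated counts per library, and the log2 fold change was 0.59 (standard error 0.31, unadjusted p = 0.0795, 95% interval -0.08 to 1.26). Mmp15, Mmp16 and Mmp17 had log2 fold changes of 0.20, 0.11 and 0.27 with overlapping groups.

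Of the other Mmp genes, Mmp23 had the highest level per kilobase, at 43.3, 39.1 and 41.2 CPM in Control and 48.9, 43.2 and 39.7 CPM in Lhx6-/- replicates 1 to 3, with overlapping groups and a log2 fold change of 0.09 (95% interval -0.10 to 0.28). Mmp28, known as epilysin from skin keratinocytes, stood at 6.36, 5.10 and 5.38 CPM in Control and 9.56, 7.05 and 6.29 CPM in Lhx6-/- replicates 1 to 3. Lhx6-/- replicate 3 lay below Control replicate 1, and the log2 fold change was 0.44 (SE 0.18, unadjusted p = 0.0313, adjusted p = 0.450 from edgeR). Mmp28 shares 466 exon bases, 12% of its exons, with 1700020L24Rik on the opposite strand, which had a mean of 1.95 CPM, and since the library type is not given as stranded, reads of both genes over these bases cannot be told apart. Mmp19 shares 22.3% of its exon bases with Tmem198b and had a log2 fold change of 0.06.

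Timp3 encodes the inhibitor that stays bound to the matrix and that also blocks ADAMTS proteases. It lies at chr10:86300372-86349506 (plus strand) and stood at 141.6, 157.5 and 148.1 CPM in Control and 189.4, 186.5 and 177.9 CPM in Lhx6-/- replicates 1 to 3. The groups did not overlap, with 157.5 against 177.9 CPM for the nearest pair. The mean was 149.0 ± 7.99 CPM in Control and 184.6 ± 5.99 CPM in Lhx6-/- tissue (SD, n = 3 each), 1.24-fold higher (95% interval 1.11 to 1.38), with a log2 fold change of 0.31, a standard error of 0.07, an unadjusted p of 8.72e-04 and an adjusted p of 0.116 from edgeR. DESeq2 gave an adjusted p of 0.00299, and over the 18 alternative fits it ran from there to 0.410, under 0.05 in that fit alone. Timp3 lies within Syn3, a synapsin gene of the opposite strand, with which it shares 1733 exon bases (21.3% of its own), and Syn3 had a mean of 0.971 CPM.

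Timp2, which also takes part in the activation of the Mmp2 precursor by Mmp14, stood at 407.7, 408.1 and 426.9 CPM in Control and 447.5, 445.0 and 430.1 CPM in Lhx6-/- replicates 1 to 3. All Lhx6-/- libraries were higher, but the log2 fold change of 0.09 (95% interval -0.06 to 0.24, unadjusted p = 0.224) was not past the test. Timp1 stood at 93.5, 82.0 and 94.8 CPM in Control and 92.2, 85.1 and 93.8 CPM in Lhx6-/- replicates 1 to 3, with a log2 fold change of 0.00 (95% interval -0.16 to 0.17). Timp1 is a gene of the X chromosome, and lies within Syn1 with no shared exon base. Timp4 was low, at 0.466, 0.988 and 0.710 CPM in Control and 0.737, 0.50 and 0.242 CPM in Lhx6-/- replicates 1 to 3, and its log2 fold change of -0.56 had a 95% interval of -1.71 to 0.59.

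**Figure D4:**
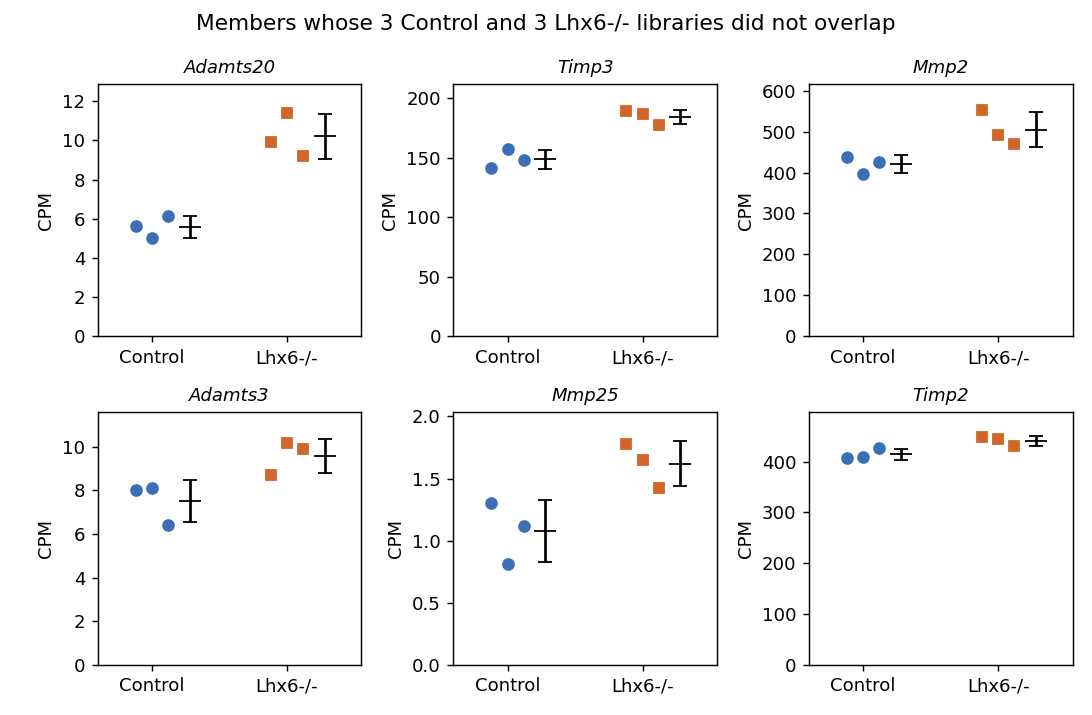
Level in CPM of the 6 members whose groups did not overlap, in each library (circles, Control; squares, Lhx6-/-), with mean and SD (black bars, n = 3) and axes that start at 0. The Lhx6-/- libraries of Adamts20 lie between 9.20 and 11.4 CPM, above 6.14 CPM, the highest Control value, while those of Timp2 lie between 430.1 and 447.5 CPM, close above 426.9 CPM.

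The pathway around these enzymes was described with 7 lists of 93 genes, of which 84 were tested. The lists held ADAMTS-like proteins, procollagen-processing enzymes, ADAM proteases, activators and inhibitors with the plasminogen system, inducers and clearance receptors, other matrix proteases, and substrates. The substrate list also held the collagen-modifying enzymes Lox and Plod2. Of these 84 genes, 4 (4.8%) met the fold and p rule, all of them higher in Lhx6-/- tissue, against 3.28% of all tested genes. A log2 fold change above 0 was found for 58 (69.0%, against 49.7% of all genes), and the median was 0.05. Spock1, a matrix proteoglycan of the testican family, stood at 7.49, 9.34 and 7.12 CPM in Control and 15, 16.5 and 13.1 CPM in Lhx6-/- replicates 1 to 3. Every Lhx6-/- library was higher, and the log2 fold change was 0.90 (SE 0.14, adjusted p = 0.0185 from edgeR). The adjusted p of Spock1 was over 0.05 in 5 of the 18 alternative fits.

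The other 3 genes that met the rule did not pass the adjusted test, with log2 fold changes of 0.72 for Vwf (adjusted p = 0.160 from edgeR), 0.61 for Adamtsl1 (adjusted p = 0.264) and 0.69 for Adam33 (adjusted p = 0.368). Vwf encodes von Willebrand factor, the substrate of Adamts13 and a product of endothelium, Adamtsl1 an ADAMTS-like protein without protease domain, and Adam33 a membrane-bound ADAM protease. Nid1, which links laminin to collagen in basement membranes, was under 1.5-fold but passed the adjusted test, at 129.0, 138.9 and 122.1 CPM in Control and 182.5, 172.6 and 163.5 CPM in Lhx6-/- replicates 1 to 3 (log2 fold change 0.41, SE 0.08, adjusted p = 0.0405 from edgeR, over 0.05 in 8 of 18 alternative fits). By list, 1 gene met the rule among the tested 6 ADAMTS-like genes, 10 ADAM genes, 17 activators and inhibitors, and 24 substrates each. Of the tested 4 procollagen-processing genes, 11 inducers and receptors and 12 other matrix proteases, 1 gene had an unadjusted p under 0.05, the thrombospondin gene Thbs2 at a log2 fold change of 0.20.

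Versican, the substrate of several proteoglycan-cutting members including Adamts20, is encoded by Vcan. It stood at 219.0, 204.7 and 216.2 CPM in Control and 290.5, 284.7 and 239.9 CPM in Lhx6-/- replicates 1 to 3. The groups did not overlap, and the log2 fold change was 0.35 (SE 0.08, unadjusted p = 0.00139, adjusted p = 0.148 from edgeR). Col1a1, which encodes the main collagen chain of dentin and bone, stood at 75994 ± 10351 CPM in Control and 80747 ± 3666 CPM in Lhx6-/- tissue (SD, n = 3), with overlapping groups and a log2 fold change of 0.09. Fn1, which encodes fibronectin, stood at 853.6 ± 34.4 and 918.3 ± 31.7 CPM (log2 fold change 0.11, unadjusted p = 0.188), and its groups did not overlap.

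Markers of several cell types moved with genotype, as sums over fixed lists. The 10 dental epithelial markers summed to 1228 to 1931 CPM in Control and 847.1 to 981.4 CPM in Lhx6-/- libraries, and 10 of 10 had a log2 fold change below 0. The 6 pericyte and smooth muscle markers summed to 397.7 to 449.6 CPM in Control and 545.9 to 658.8 CPM in Lhx6-/- libraries, and 6 of 6 were above 0. The 7 endothelial markers summed to 326.7 to 331.4 and 358.0 to 418.9 CPM, and 7 of 7 were above 0. These 3 sums did not overlap between the genotypes, nor did those of the 7 neutrophil markers given with Mmp8, of 5 odontoblast markers (5379 to 5894 against 6530 to 7209 CPM) and of 6 erythroid markers (2969 to 3701 against 1592 to 2329 CPM). Most of the odontoblast sum was Dspp, which encodes dentin sialophosphoprotein, and without it the other 4 markers summed to 1064 to 1162 CPM in Control and 1162 to 1217 CPM in Lhx6-/- libraries, where Control replicate 1 and Lhx6-/- replicate 1 were not separated. The sums of 8 dental mesenchyme markers, Lhx6 among them, overlapped, at 400.7 to 457.4 and 433.0 to 480.1 CPM, as did those of the ameloblast, osteoblast, osteoclast, macrophage, cartilage, follicle and periodontal ligament, nerve and skeletal muscle lists. Within those lists, Col9a1, a collagen of cartilage, rose 5.23-fold (adjusted p = 0.00576 from edgeR), from 0.835 to 1.07 CPM in Control to 3.32 to 6.89 CPM in Lhx6-/- libraries. The cartilage list was mixed, with 4 of 6 genes above 0 and 2 below. Its log2 fold changes were -0.35 for Col2a1 (unadjusted p = 0.0212 from edgeR), -0.59 for Matn3, 0.01 for Acan, 0.03 for Col11a2 and 0.44 for Comp. Amtn, which encodes the enamel organ protein amelotin, fell by 0.54 on the log2 scale (adjusted p = 0.0210 from edgeR). No measured marker was at 0 in any library. With the epithelial level as a covariate, the log2 fold change was 0.40 for Timp3, 0.53 for Adamts3, 1.21 for Spock1 and 0.49 for Nid1, with adjusted p of 0.288, 0.605, 0.0685 and 0.214 from edgeR, beside those of Adamts20 and Mmp2 given above. Since the epithelial sums did not overlap between the genotypes, this covariate cannot be fully separated from genotype with 6 libraries. The part of any cell type in the values of these 6 genes was not tested.

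**Figure D5:**
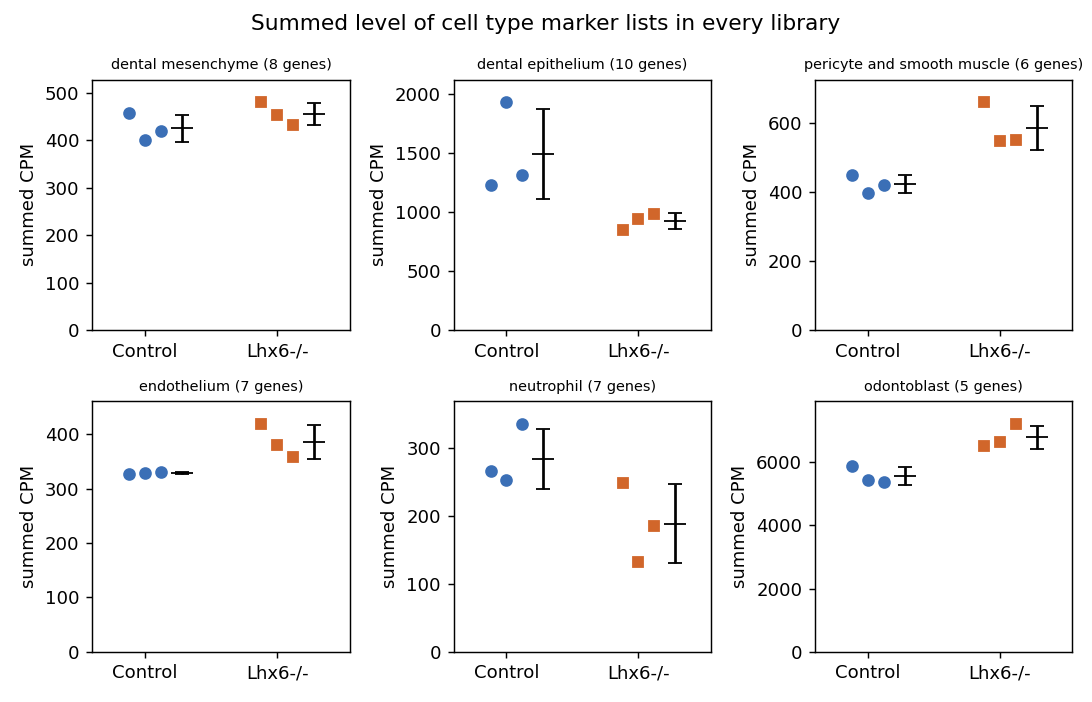
Summed CPM of 6 marker lists in each library (circles, Control; squares, Lhx6-/-), with mean and SD (black bars, n = 3) and axes that start at 0. The dental epithelial and neutrophil sums of the Lhx6-/- libraries lie below those of Control, the pericyte, endothelial and odontoblast sums above them, and the dental mesenchyme sums overlap.

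Sex-linked transcripts were unevenly spread over the libraries. The level of Xist went with genotype, so sex and genotype cannot be fully told apart in these 6 libraries. Xist, the RNA that coats the silenced X chromosome in female cells, was at 792.0, 411.0 and 627.8 CPM in Control and 289.7, 0.230 and 0.0530 CPM in Lhx6-/- replicates 1 to 3, without overlap, and its fitted difference had an unadjusted p of 0.361 from edgeR. The 4 Y-linked genes summed to 14.6 to 58.0 CPM in Control and 55.1 to 92.1 CPM in Lhx6-/- libraries, with overlap. The mean Y-linked sum was 2.62-fold higher in Lhx6-/- than in Control libraries, so the Y-linked level as a covariate cannot be fully separated from genotype. With this covariate, 6 of the 35 tested members met the fold and p rule, as did 1241 of all 20114 tested genes. The 6 were Adamts20, Adamts4, Adamts8, Mmp25, Mmp28 and Mmp8. In that fit the member with an adjusted p under 0.05 was Adamts4 (log2 fold change 0.70, adjusted p = 0.0326 from edgeR). The part of sex in the members' values was not tested beyond this covariate.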

How the data were processed

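Estimated counts of 23594 genes in 6 libraries were deposited by the authors, and their reads were trimmed, aligned with STAR 2.6.1d to mm10 and summed per gene in Partek. The counter, the gene annotation and the strandedness are not given in the sources used here. The counts are not normalized, and every gene reached at least 10 in some library. A table of the authors' own comparison was deposited too, and its ratios, fold changes, p-values and false discovery rates were not used. Its group means, which are the authors' values of 1 + CPM, were used to check which gene each count belongs to (largest relative deviation 8.56e-08). Coordinates are those of the deposited table in mm10, and exon lengths are unions of GENCODE vM21 exons, in which all 40 members had the same chromosome and start.

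The estimated counts were rounded and scaled by TMM (factors 0.977 to 1.044). Genes that edgeR's expression filter kept (20114) were tested for genotype alone with the two-sided quasi-likelihood test of edgeR 4.0.16 (R 4.3.3, robust, biological coefficient of variation 0.202), with Benjamini-Hochberg adjustment over all of them. A gene met the rule at 1.5-fold or more and an unadjusted p under 0.05. Nothing says how the pooled molars were divided over mice, so p-values measure the spread between these libraries, and 3 against 3 libraries have a smallest exact permutation p of 0.1. Precision was limited by that spread for abundant genes and also by counting for genes of few counts, at 60132323 to 76157433 estimated counts per library. The code was tested on simulated counts with known changes.

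The members and all lists were chosen with earlier results of these data known. Members named were those that met the rule or the adjusted test, all Timp genes, the highest member per kilobase in each role, and those whose groups did not overlap. Mmp28, Adamts4 and other members with an unadjusted p under 0.05, Adamts13, the Mmp members of chromosome 9 and single genes outside that rule were named after their values were seen. Alternatives were 12 other fits (scaling, filters, DESeq2 1.42.0, limma 3.58.1, covariates, a replicate block), 6 that left out 1 library each, and 2 other thresholds. Figures were drawn with matplotlib 3.10.9.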

Additional observations from a re-analysis of the deposited data

How the results depend on the processing

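Of 324 values of the 18 named members under 18 alternative fits, 15 changed sign and 9 crossed the adjusted p threshold. With epithelial markers as a covariate, the member median was -0.01, and 0 members had an adjusted p under 0.05 from edgeR, where 8 of all genes did. In that fit the log2 fold changes were -0.05 for Adamts10, -0.05 for Adamts2, -0.12 for Adamts4, -0.08 for Mmp11, -0.17 for Mmp14, -0.06 for Mmp23 and -0.18 for Timp1. With Y-linked genes as a covariate, the member median was 0.25 and Adamts12 turned to 0.03. In that fit 6 of the 35 tested members met the rule, as did 1241 of all 20114 tested genes. An adjusted p under 0.05 from edgeR was reached there by 359 genes. DESeq2 gave 2 members and 315 genes at an adjusted p under 0.05, and limma voom with sample weights gave -0.02 for Timp1. At 2-fold, the rule took 0 members, 0 pathway genes and 350 genes, and at an unadjusted p under 0.01 it took 292 genes. Leaving out 1 library each time gave 1 to 2 members meeting the rule (Adamts19 joined without Control replicate 1, and Mmp8, lower, without Control replicate 3), 0 to 1 with an adjusted p under 0.05 (1 without Lhx6-/- replicate 3, otherwise 0, with 4 to 11 at an unadjusted p under 0.05), 607 to 968 genes meeting the rule and 12 to 127 with an adjusted p under 0.05, the lowest without Control replicate 3 and the highest without Control replicate 1, with 31 and 20 genes without Lhx6-/- replicates 1 and 2. It gave 2 to 5 pathway genes meeting the rule (2 without Lhx6-/- replicate 1) and member medians of 0.08 to 0.15. In these fits 8 to 16 members were without overlap, where fewer libraries leave less room for overlap in any gene. The shares of all genes without overlap, or at that unadjusted p, are not given for these fits. The counts of 4 to 11 and 8 to 16 members therefore cannot be read as a trait of the members. The log2 fold changes were -0.06 to 0.00 for Adamts12, -0.03 to 0.11 for Mmp14 and -0.06 to 0.05 for Timp1. The causes were not tested. No pairing of the libraries by the replicate numbers of the labels was visible. Deviations from the group means of libraries with the same number correlated at 0.026, -0.029 and -0.031, and not every library correlated best with its own number. The study names 3 pairs of samples without saying which libraries were paired, so these correlations cannot show that the libraries were unpaired. A replicate block gave 652 genes meeting the rule, 134 with an adjusted p under 0.05, and the same counts of 1 member for the members. The deposited table numbers the Lhx6-/- libraries 2, 3 and 4, and by those numbers the correlations with Control replicates 2 and 3 were -0.062 and -0.006. The sums with Mmp9 and Mmp20 and without single markers were chosen after seeing the data. For genes of few counts, such as Adamts13 and Timp4, wide intervals limit what can be read.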

Other observations

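Mmp9 and Mmp20, the metalloproteinases outside the rule for members, had overlapping groups. Mmp9, the gelatinase of osteoclasts and neutrophils, stood at 1280 ± 53.0 CPM in Control and 1184 ± 159.4 CPM in Lhx6-/- tissue (SD, n = 3 each), a log2 fold change of -0.11 (unadjusted p = 0.279 from edgeR). Mmp20, which processes enamel proteins, stood at 345.6 ± 55.9 and 330.4 ± 53.2 CPM, a log2 fold change of -0.06 (unadjusted p = 0.641 from edgeR).

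The substrate list had 24 tested genes, and also held the collagen-modifying enzymes Lox and Plod2. Of the 24, 11 (45.8%) were higher in every Lhx6-/- library than in every Control library, against 7.86% of all tested genes. A log2 fold change above 0 was found for 17 (70.8%), against 49.7% of all genes. Among the genes of basement membranes and vessels, Col4a1 stood at 533.6, 504.6 and 516.0 CPM in Control and 684.1, 579.7 and 585.5 CPM in Lhx6-/- replicates 1 to 3 (log2 fold change 0.25, unadjusted p = 0.0113, adjusted p = 0.314 from edgeR). Col3a1, a fibrillar collagen of soft tissue, stood at 2334, 2389 and 2298 CPM in Control and 3026, 2954 and 2699 CPM in Lhx6-/- replicates 1 to 3 (log2 fold change 0.31, adjusted p = 0.202 from edgeR). Col2a1, the main fibrillar collagen of cartilage, was in the other direction, at 982.3, 768.5 and 1144 CPM in Control and 805.5, 771.9 and 694.2 CPM in Lhx6-/- replicates 1 to 3, with overlap (log2 fold change -0.35, unadjusted p = 0.0212, adjusted p = 0.391 from edgeR). Lum, which encodes the collagen-binding proteoglycan lumican, had a log2 fold change of -0.18 (unadjusted p = 0.0525 from edgeR). Reck, which encodes a membrane-bound inhibitor of matrix metalloproteinases, stood at 35.6 ± 3.23 CPM in Control and 41.4 ± 0.963 CPM in Lhx6-/- tissue (log2 fold change 0.22, unadjusted p = 0.0215, adjusted p = 0.394 from edgeR). Col4a1, Col3a1, Col2a1, Lum and Reck were picked with their values in view, and none of the 5 passed the adjusted test.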
